A study of Rattus norvegicus with 2 samples.

Results

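The genes described here are 10 genes of the NRF2 antioxidant response and of the defence against ferroptosis: Nfe2l2, Hmox1, Nqo1, Prdx1, Gclc, Gclm, Txnrd1, Srxn1, Slc7a11 and Gpx4. They were chosen by symbol for their known function. Each was found on 1 row of a table of 21224 gene rows, and all 10 were among the 13172 genes whose FPKM averaged 1 or more across the pair of libraries. FPKM is the number of reads scaled to gene length and to the library's assigned reads, so levels of different genes can be set beside each other. The study measured messenger RNA in cortical neurons taken from rat embryos at E18. The siNC group was treated with a control small interfering RNA without a target, and the siYthdf3 group with one against Ythdf3, which encodes a reader of the methyl mark m6A on messenger RNA. No strain, dose, duration or further treatment is named in the labels, and no sample is named as hypoxic although the title of the study speaks of hypoxic-ischemic injury. Each group had 1 library, and siNC held 15392218 reads assigned to genes where siYthdf3 held 22586543.

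A design of 1 library per group leaves every difference below without replicates, so p-values are not reported. Each ratio of FPKM values, siYthdf3 over siNC, is followed in parentheses by its exact 95% counting interval, which covers counting error only. Differences between cultures or library preparations are outside it, and it is too narrow where several reads are copies of 1 molecule.

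NRF2, encoded by Nfe2l2, is a transcription factor that KEAP1 marks for degradation in resting cells. Oxidants and electrophiles disable KEAP1, and NRF2 then pairs with small MAF proteins at antioxidant response elements, where BACH1 competes as a repressor. Its targets make glutathione, keep thioredoxin reduced and degrade haem and quinones. Ferroptosis is a cell death driven by iron-dependent oxidation of membrane lipids, which GPX4 counters with glutathione, and glutathione in turn needs cystine brought in by the transporter SLC7A11. NRF2 is controlled largely at the level of its protein, which was not measured here, and in brain its target genes are known to be more active in astrocytes than in neurons.

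The antioxidant response element has the core TGACNNNGC, which was searched on both strands of RefSeq promoter windows of the GRCr8 assembly, from 250 bases before to 50 bases after a gene's start. Such windows were found for 9 of the 10 genes, in 12 windows, and none for Hmox1. The core was present in a window of 4 of the 9 genes, and in a window of 13.1% of the 27457 genes of that table. The stretches that hold it are shown because this is the letter pattern by which the family is usually recognised. They are written on the strand of the gene, with the core in capitals.
Prdx1 (chr5:135383761-135383789, plus strand, core on the opposite strand from base 135 before the start): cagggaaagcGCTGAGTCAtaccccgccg
Gclm (chr2:213031953-213031981, plus strand, core on the opposite strand from base 172 before the start): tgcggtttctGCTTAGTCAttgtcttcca
Txnrd1 (chr7:22755964-22755992, minus strand, core on the opposite strand from base 78 before the start): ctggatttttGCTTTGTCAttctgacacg
Nfe2l2 (chr3:81028950-81028971, minus strand, core on the gene's strand at base 39 after the start): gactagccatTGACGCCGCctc

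A shorter motif, TGACTCA, is the letter pattern that CNC-MAF and AP-1 proteins share, and it was searched in the same windows after the sequences had been seen. It was present, on either strand, in a window of 5.04% of all genes in the table and of 2 of the 9 genes, Prdx1 and Srxn1, with 2 matches each. One of the Prdx1 matches overlaps the core shown above. Both windows are shown with this motif in capitals, since these genes encode a peroxidase and the enzyme that repairs it.
Prdx1 (chr5:135383656-135383955, plus strand): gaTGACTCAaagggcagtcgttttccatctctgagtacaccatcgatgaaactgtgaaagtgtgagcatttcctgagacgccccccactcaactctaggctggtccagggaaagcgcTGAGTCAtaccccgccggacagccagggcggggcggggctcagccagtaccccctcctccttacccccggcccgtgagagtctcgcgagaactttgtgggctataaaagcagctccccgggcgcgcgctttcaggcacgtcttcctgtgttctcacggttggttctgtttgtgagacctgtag
Srxn1 (chr3:161064562-161064861, plus strand): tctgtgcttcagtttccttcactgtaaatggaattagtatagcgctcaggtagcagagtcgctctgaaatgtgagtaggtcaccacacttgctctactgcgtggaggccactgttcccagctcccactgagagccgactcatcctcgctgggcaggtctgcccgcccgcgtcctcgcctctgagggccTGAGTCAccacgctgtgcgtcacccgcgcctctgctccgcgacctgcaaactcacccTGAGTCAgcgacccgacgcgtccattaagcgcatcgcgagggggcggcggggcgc
A match is a stretch of letters and not a site shown to be bound. The elements that regulate such genes can lie outside these windows, so no match says only that the letters are not there.

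The 10 genes did not differ between the libraries in one direction. Hmox1 and Nfe2l2 were higher in siYthdf3, Nqo1 and Prdx1 were lower, and Gclc, Gclm, Txnrd1, Slc7a11 and Gpx4 lay within 1.11-fold of equal levels. Srxn1 was read too thinly to place. The ratio was above 1 for 4 genes and below 1 for 6. Counting intervals lay above 1 for 2 genes, against 20% of the 13172 genes, and below 1 for 5, against 22.2% of them. Such intervals are thus common in this table, and among the 10829 genes within the read range of the 10 genes 44.9% excluded 1. A rule of size was therefore set at 1.5-fold on the scale of log2(FPKM + 0.5), on which differences of low genes appear smaller. By that rule 0 of the 10 genes were higher, where 2.41% of all genes were, and 1 was lower, Nqo1, where 3.95% of all genes were. The median log2 ratio of the 10 genes was -0.11, against -0.01 over all genes, whose quartiles were -0.17 and 0.14.

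**Figure D1:**
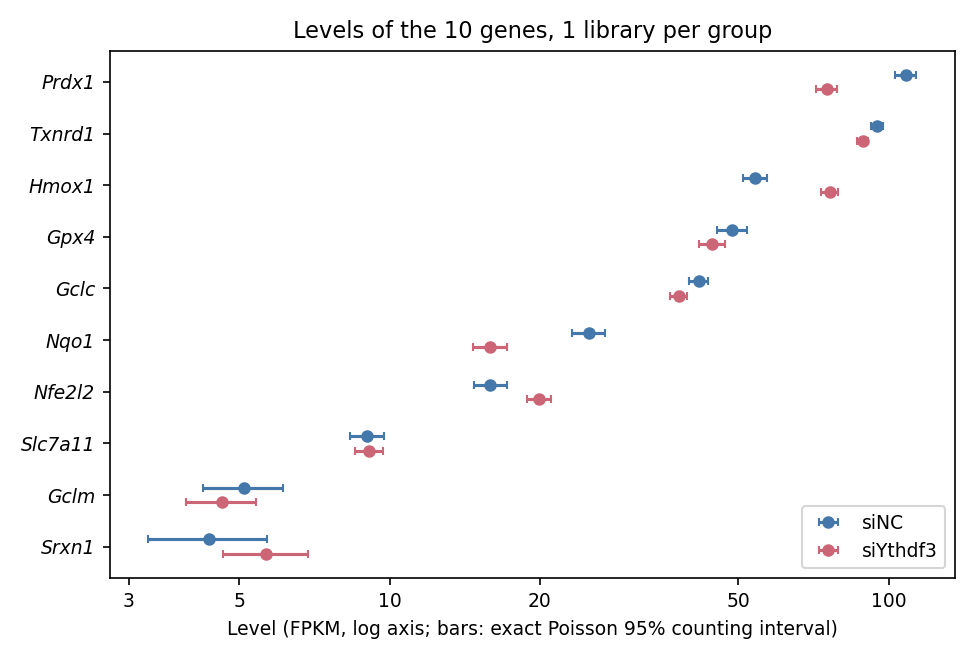
Level of each of the 10 genes in FPKM (log axis) in the siNC library (blue) and the siYthdf3 library (red), with exact Poisson 95% counting intervals as bars and 1 library per group. The intervals of the 2 libraries are apart for Hmox1, Nfe2l2, Nqo1, Prdx1, Gclc and Txnrd1; Hmox1 and Nfe2l2 are higher and the other 4 lower in siYthdf3.

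Ythdf3, the gene that was targeted, was at 9.38 FPKM in siNC and 6.93 FPKM in siYthdf3. Its ratio was 0.739 (0.675 to 0.809), so its messenger was lower, yet still present, in the library labelled as the knockdown. The log2 ratio of Ythdf3 was -0.41, short of the 1.5-fold rule, and 7.52% of all genes were at or below it. Both Nqo1 and Prdx1 had lower ratios than Ythdf3 itself, but with counting intervals that overlap that of Ythdf3.

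Nfe2l2 (ENSRNOG00000001548, chromosome 3, 60594242 to 60621737, minus strand), which encodes the transcription factor NRF2, was at 15.9 FPKM in siNC and 19.9 FPKM in siYthdf3. The siYthdf3 library was the higher, and the counting intervals of the 2 levels did not overlap. The ratio was 1.251 (1.14 to 1.38) from 669 and 1228 reads. Its log2 ratio of 0.31 was at or above that of 90.8% of all genes. Gene coordinates were copied from the table; the sources used here name no genome build for it.

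The genes whose products hold NRF2 in check differed in part with it. Keap1, the adaptor that marks NRF2 for degradation, was at 10.8 FPKM in siNC and 11.6 FPKM in siYthdf3, a ratio of 1.08 (0.968 to 1.21) that includes 1. Cul3, the scaffold of the same ubiquitin ligase, was at 1.02 (0.983 to 1.06). Bach1, the competing repressor, was higher, at 11.7 FPKM in siNC and 14.6 FPKM in siYthdf3 and a ratio of 1.24 (1.12 to 1.38). Maff, a small MAF partner, was higher too, at 3.38 FPKM in siNC and 4.77 FPKM in siYthdf3 and a ratio of 1.41 (1.14 to 1.75), while Mafg and Mafk had ratios of 0.982 and 0.989. The activator and its competing repressor were thus displaced by almost the same factor.

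Of 20 genes listed as NRF2 regulators, Nfe2l2 among them, 18 passed the filter on low values, with a median log2 ratio of 0.09. Counting intervals lay above 1 for 8 (44.4%) and below 1 for 3 (16.7%), where all genes had 20% and 22.2%. Without Nfe2l2 the median was 0.08, with 7 of 17 intervals above 1 and 3 below. None of the 18 was 1.5-fold higher, and 1 was 1.5-fold lower. That gene was Brca1, a DNA repair protein reported to bind NRF2 and a gene of dividing cells, at 8.07 FPKM in siNC and 4.89 FPKM in siYthdf3. The inducible stress gene Sesn2 and the ubiquitin ligase adaptor Btrc were at log2 ratios of 0.29 and 0.28.

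Hmox1 (ENSRNOG00000014117, chromosome 19, 13467244 to 13474079, plus strand) encodes haem oxygenase, which breaks haem down to biliverdin, carbon monoxide and iron. It was at 54.0 FPKM in siNC and 76.1 FPKM in siYthdf3. This was the highest ratio of the 10 genes, 1.41 (1.32 to 1.51), from 1285 and 2659 reads. At a log2 ratio of 0.49 it stayed below the 1.5-fold limit, and it ranked 479 from the highest of the 13172 genes. The next steps of the route did not clearly share it. Blvra, a biliverdin reductase, had a ratio of 1.14 (0.930 to 1.41) and Blvrb, the other reductase, of 0.874 (0.687 to 1.11). Hmox2, the constitutive haem oxygenase, was at 0.958 (0.861 to 1.07).

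Nqo1 (ENSRNOG00000012772, chromosome 19, 35295573 to 35310557, minus strand) encodes a quinone reductase and is among the best known NRF2 targets. It was at 25.04 FPKM in siNC and 15.9 FPKM in siYthdf3. It went the opposite way to Hmox1, with the lowest ratio of the 10 genes, 0.636 (0.568 to 0.711), from 653 and 609 reads. The value on the log2 scale was -0.64, and 3.19% of all genes were at or below it. After a trend of the ratio with gene length was removed, the value was -0.57 and no longer past the 1.5-fold rule. Hmox1 was 2.16 times the level of Nqo1 in siNC and 4.78 times in siYthdf3.

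Among 30 listed quinone, haem and phase II genes, these included, 24 passed the filter and were split evenly. The median log2 ratio was 0.00, with 12 genes on each side of 0 and 5 counting intervals (20.8%) on each side of 1. All genes had 20% above and 22.2% below. Only Ephx1, an epoxide hydrolase, was 1.5-fold higher, at 7.97 FPKM in siNC and 13.7 FPKM in siYthdf3. Besides Nqo1, Gstk1, a glutathione transferase of mitochondria and peroxisomes, was 1.5-fold lower at -0.70, but on 29 and 22 reads. That is 4.17% of the 24 higher and 8.33% lower, where all genes had 2.41% and 3.95%. The glutathione transferases differed among themselves: Gstm4 was at 0.26, Gstm1 at -0.17, Gsto1 at -0.28 and Gstp1 at -0.07. The members of the Gstm family are similar in sequence, so the split of reads between them is uncertain. Aox1, an aldehyde oxidase, was at 0.47 and passed the rule with a pseudocount of 0.1 FPKM, and Abcc1, an exporter of glutathione conjugates, at 0.24.

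**Figure D2:**
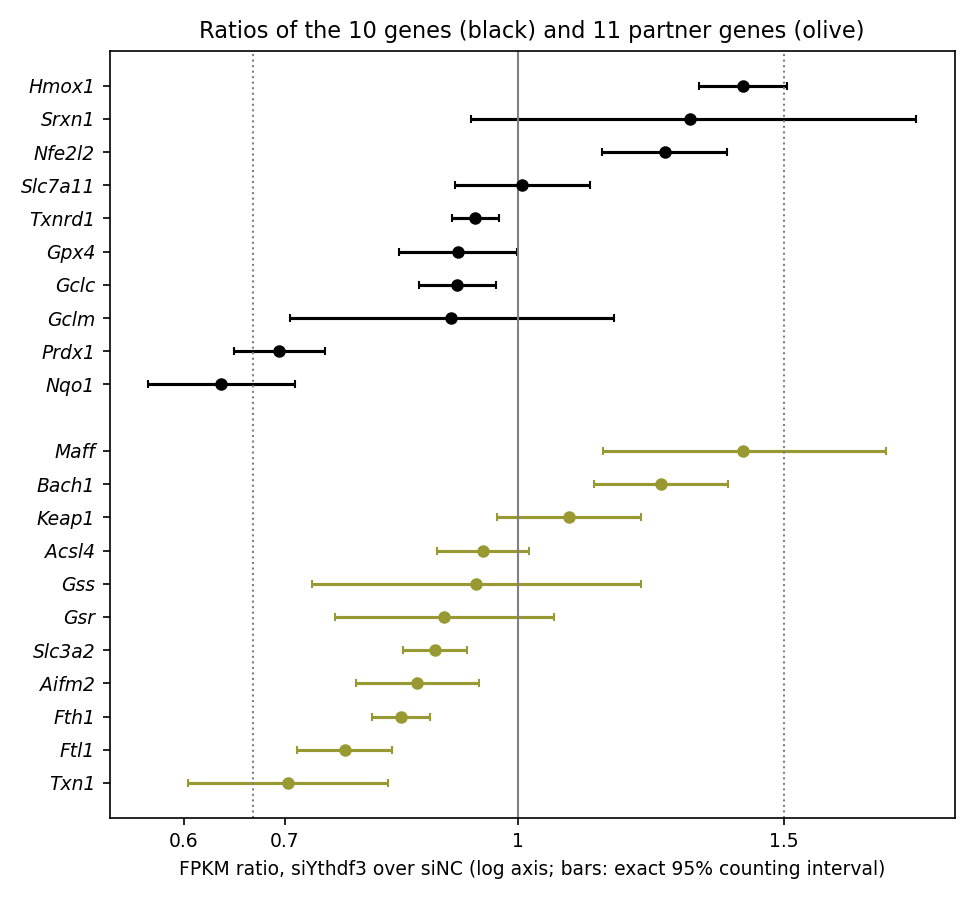
FPKM ratio of siYthdf3 over siNC (log axis) for the 10 genes (black) and for partner genes of the same routes (olive), with exact 95% counting intervals; the solid line marks 1 and the dotted lines 1.5-fold in either direction. Hmox1 at 1.41 and Nqo1 at 0.636 are at the ends of the black points.

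Prdx1 (ENSRNOG00000017194, chromosome 5, 130147204 to 130162856, plus strand) encodes a cytosolic peroxiredoxin, an enzyme that reduces hydrogen peroxide with electrons from thioredoxin. It was at 108 FPKM in siNC, the highest level of the 10 genes there, and at 75.1 FPKM in siYthdf3. The ratio was 0.694 (0.648 to 0.744) from 1604 and 1634 reads, and the log2 ratio was -0.52, short of the 1.5-fold rule. No more than 4.88% of all genes were at or below it. After the length trend was removed, the log2 ratio of Prdx1 was -0.42. The only row named as a copy of a member, Prdx1l1, had 14 reads in each library, although reads lost to copies that are not in the table cannot be seen.

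Srxn1 (ENSRNOG00000031167, chromosome 3, 140599608 to 140628448, plus strand) encodes sulfiredoxin, which restores overoxidised peroxiredoxins. It was at 4.36 FPKM in siNC and 5.67 FPKM in siYthdf3, on 55 and 105 reads. The ratio of 1.30 had an interval of 0.930 to 1.84, so a difference in either direction was not detectable at this depth. The interval does lie wholly above that of Prdx1.

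Other peroxidases and related antioxidant enzymes were mixed. Prdx2 was at 120 FPKM in siNC and 99.8 FPKM in siYthdf3, with a ratio of 0.834 (0.789 to 0.881). The peroxiredoxin of the secretory route, Prdx4, was at 0.711 (0.615 to 0.823), whereas the mitochondrial Prdx3 was at 1.00 (0.818 to 1.24). Gpx8, a peroxidase of the endoplasmic reticulum, was 1.5-fold lower at 23.0 FPKM in siNC and 15.1 FPKM in siYthdf3, by a margin that several scalings removed. Sod3, the extracellular superoxide dismutase, was at a log2 ratio of 0.42 on 48 and 102 reads, and the cytosolic Sod1 at -0.20. Catalase, encoded by Cat, had a ratio of 1.04 (0.976 to 1.10). Of 16 listed peroxidase genes, 15 passed the filter, with 1 interval above 1 (6.67%) and 7 below (46.7%). All genes had 20% and 22.2%. The 15 include Prdx1, Gpx4 and Srxn1, which are described on their own. Without them, 1 interval lay above 1 and 5 lay below, among 12 genes. The median log2 ratio of the 15 was 0.01, which became -0.16 when the filter was raised to 5 FPKM, so no direction is given for the list.

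Txnrd1 (ENSRNOG00000009088, chromosome 7, 20830045 to 20907863, minus strand) encodes the cytosolic thioredoxin reductase, a selenoprotein that passes electrons from NADPH to thioredoxin. It was at 94.7 FPKM in siNC and 88.6 FPKM in siYthdf3. The levels differed little, with a ratio of 0.936 (0.903 to 0.971) from 5135 and 7056 reads, the deepest count of the 10 genes. Txn1, its substrate thioredoxin, was lower by more, at 27.3 FPKM in siNC and 19.2 FPKM in siYthdf3 and a ratio of 0.704 (0.604 to 0.820). This was close to the ratio of Prdx1, which thioredoxin serves. The mitochondrial thioredoxin Txn2 had a ratio of 0.687 (0.576 to 0.818) and its reductase Txnrd2 of 0.812 (0.686 to 0.963). Of 14 measured thioredoxin and glutaredoxin genes, none was past the 1.5-fold rule. Intervals lay above 1 for 1 (7.14%) and below 1 for 5 (35.7%), where all genes had 20% and 22.2%. Without Txnrd1, which is in the list, they lay below 1 for 4 of 13. The gene above 1 was Glrx5, a glutaredoxin of iron-sulfur cluster assembly, at a log2 ratio of 0.40.

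Glutathione is made from glutamate, cysteine and glycine, and the first step is set by glutamate-cysteine ligase. Gclc (ENSRNOG00000006302, chromosome 8, 78630127 to 78668544, plus strand) encodes its catalytic subunit and was at 41.6 FPKM in siNC and 37.9 FPKM in siYthdf3. Gclm (ENSRNOG00000013409, chromosome 2, 210347482 to 210367535, plus strand) encodes the modifier subunit and was at 5.12 FPKM in siNC and 4.62 FPKM in siYthdf3. Both subunits had nearly the same ratio, 0.911 (0.859 to 0.967) for Gclc and 0.903 (0.706 to 1.16) for Gclm, the latter on 117 and 155 reads. Per length, Gclc was 8.14 times the level of Gclm in siNC and 8.21 times in siYthdf3. Gss, the enzyme of the second step, had a ratio of 0.937 (0.730 to 1.21), and Gsr, which regenerates glutathione, of 0.893 (0.756 to 1.06).

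Slc7a11 (ENSRNOG00000010210, chromosome 2, 133963107 to 134517536, minus strand) encodes the cystine-glutamate exchanger that supplies cysteine for glutathione. It was at 9.03 FPKM in siNC and 9.09 FPKM in siYthdf3. These levels were the closest of the 10 genes, with a ratio of 1.01 (0.908 to 1.12) from 627 and 926 reads, and the sign of the log2 ratio of 0.01 turned after removal of the length trend. Slc3a2, the partner chain that carries SLC7A11 to the membrane, was slightly lower, with 93.6 FPKM in siNC, 82.5 FPKM in siYthdf3 and a ratio of 0.881 (0.839 to 0.926). Slc1a1, a glutamate transporter that also takes up cysteine in neurons, was higher at 7.84 FPKM in siNC and 10.7 FPKM in siYthdf3, a ratio of 1.36 (1.18 to 1.58). It had the only interval above 1 (7.69%) among the 13 listed genes of glutathione synthesis and cystine import that passed the filter. Intervals lay below 1 for 2 of the 13 (15.4%), Gclc and Slc3a2. All genes had 20% above and 22.2% below. The 13 include Gclc, Gclm and Slc7a11, and none of the 13 was past the 1.5-fold rule. Chac1, which degrades glutathione, was at 1.13 (0.909 to 1.42).

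Gpx4 (ENSRNOG00000013604, chromosome 7, 9650185 to 9652982, minus strand) encodes the selenoprotein that reduces lipid hydroperoxides in membranes. It was at 48.6 FPKM in siNC and 44.3 FPKM in siYthdf3. The ratio was 0.912 (0.834 to 0.998) from 854 and 1143 reads, with an upper end close to 1. The log2 ratio was -0.13, inside the quartiles of all genes, as were those of Gclc, Gclm, Txnrd1 and Slc7a11. Rescaling to TPM, which sets both libraries to equal summed levels, left intervals below 1 only for Nqo1 and Prdx1, so the small deficits of Gclc, Txnrd1 and Gpx4 depend on the scaling. Aifm2, which encodes a ferroptosis suppressor that acts beside GPX4, was at 12.1 FPKM in siNC and 10.4 FPKM in siYthdf3, a ratio of 0.857 (0.781 to 0.942).

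Genes that make membranes prone to ferroptosis differed little. Acsl4, which loads polyunsaturated fatty acids into lipids, was at 10.8 FPKM in siNC and 10.2 FPKM in siYthdf3, a ratio of 0.948 (0.884 to 1.02). Lpcat3, which acts after it, was at 0.938 (0.827 to 1.06). Of 24 measured lipid and radical-trapping genes none was past the 1.5-fold rule. Intervals included 1 for 19, lay below 1 for 4 (16.7%) and above 1 for 1 (4.17%), where all genes had 22.2% and 20%. The gene above 1 was Scd, a fatty acid desaturase, at a log2 ratio of 0.30. Ptgs2, a prostaglandin synthase often read as a ferroptosis marker, was at -0.27.

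The 19 iron genes that passed the filter were mixed, with counting intervals above 1 for 4 and below 1 for 5, shares near those of all genes. Fth1, the ferritin heavy chain, was at 239 FPKM in siNC and 199.7 FPKM in siYthdf3, a ratio of 0.836 (0.800 to 0.873). For Ftl1, the light chain, the levels were 37.5 FPKM in siNC and 28.8 FPKM in siYthdf3 and the ratio 0.767 (0.713 to 0.825). Both ferritin genes have many processed copies, so their read totals are uncertain. Slc39a8, a zinc transporter that also carries iron and manganese, was the only 1.5-fold difference in this list, at 1.82 FPKM in siNC and 3.47 FPKM in siYthdf3. That is 5.26% of the 19, where 2.41% of all genes were 1.5-fold higher. Fbxl5, which controls iron regulatory proteins, and Cp, the ferroxidase ceruloplasmin, were at log2 ratios of 0.32 and 0.29. The transferrin receptor gene Tfrc, at 1.05 (0.994 to 1.11), had an interval that includes 1.

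Reducing power for both glutathione and thioredoxin comes from NADPH. The 15 listed NADPH genes had a median log2 ratio of -0.18, and none was past the 1.5-fold rule. Intervals lay below 1 for 8 of them (53.3%) and above 1 for 2 (13.3%), where all genes had 22.2% and 20%. The lowest of the 15 were Mthfd2, a mitochondrial folate enzyme, at -0.35 and Idh2, the mitochondrial isocitrate dehydrogenase, at -0.33. Pgd, of the pentose phosphate pathway, was at 0.23. Among 19 selenoprotein and selenium genes none was past 1.5-fold. They had 3 intervals above 1 (15.8%) and 4 below (21.1%), where all genes had 20% and 22.2%. Selenom and Selenot, selenoproteins of the endoplasmic reticulum, were at 0.48 and 0.42, the former on 48 and 101 reads and past the rule at 0.59 once the length trend was removed, while Secisbp2, which helps insert selenocysteine, was at -0.17.

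**Figure D3:**
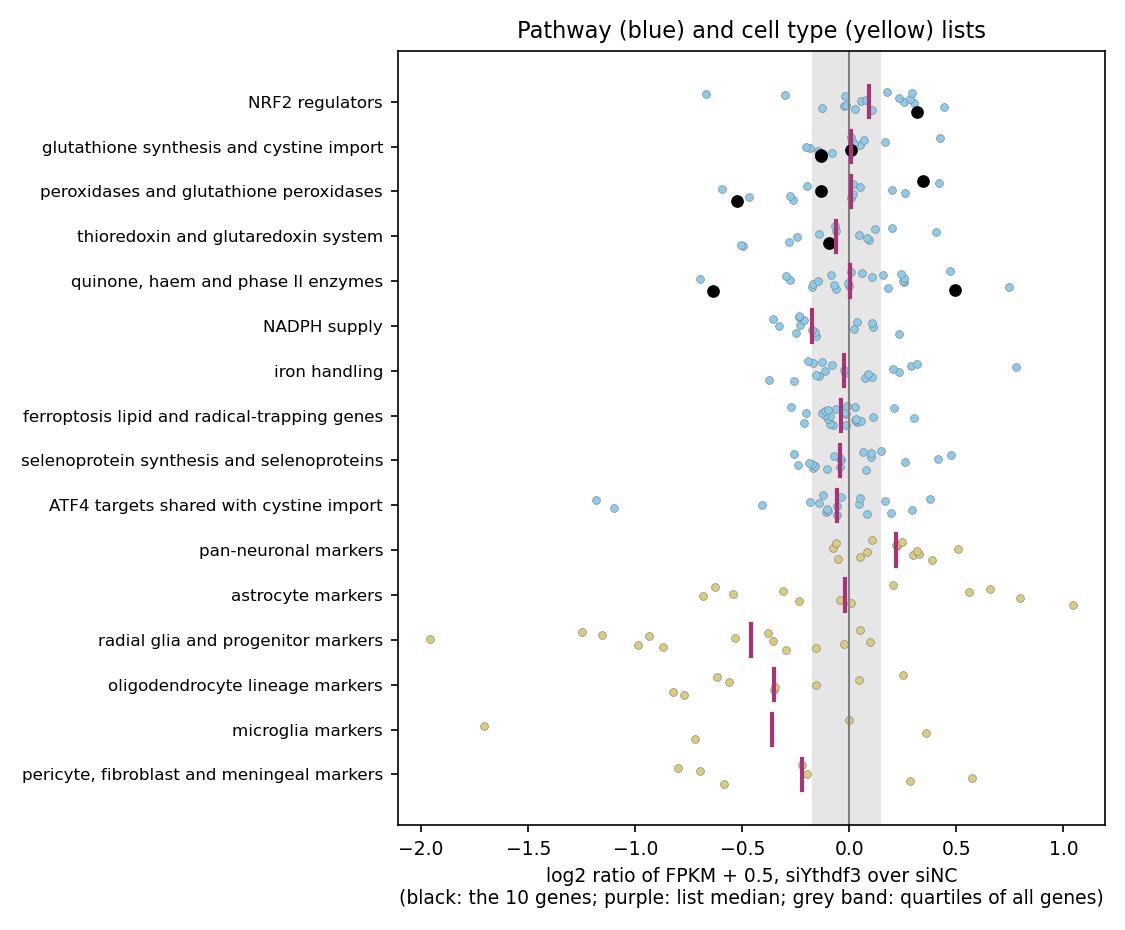
Log2 ratio of FPKM + 0.5, siYthdf3 over siNC, for each gene with a mean of at least 1 FPKM in the pathway lists (blue) and cell type lists (yellow), with the 10 genes in black, list medians as purple bars and the quartiles of all genes as a grey band. The 10 genes lie between -0.64 and 0.49, while markers of radial glia and progenitors have a median of -0.46 and reach -1.96.

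Over the 10 pathway lists without the 10 genes, 167 genes passed the filter, with a median log2 ratio of -0.02. Counting intervals lay above 1 for 25 and below 1 for 42, and 2 were 1.5-fold higher and 5 lower. That is 15.0% above and 25.1% below for intervals, where all genes had 20% and 22.2%, and 1.20% and 2.99% for the rule of size, where all genes had 2.41% and 3.95%.

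The order of levels changed at the top. In siNC it ran Prdx1, Txnrd1, Hmox1, Gpx4, Gclc, Nqo1, Nfe2l2, Slc7a11, Gclm and Srxn1. The intervals of neighbours overlapped only for Hmox1 and Gpx4 and for Gclm and Srxn1. In siYthdf3 it ran Txnrd1, Hmox1, Prdx1, Gpx4, Gclc, Nfe2l2, Nqo1, Slc7a11, Srxn1 and Gclm. There, Hmox1 and Prdx1 could not be told apart, nor could Srxn1 and Gclm. Nfe2l2 and Nqo1 had exchanged places, each at 15.9 FPKM in the library where it was the lower. Summed over the 10 genes, the level was 407 FPKM in siNC and 377 FPKM in siYthdf3.

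Cell type markers moved between the same libraries, and in bulk RNA fewer cells of a type and less RNA per cell cannot be told apart. All 14 pan-neuronal markers passed the filter, summing to 1891 FPKM in siNC and 2194 FPKM in siYthdf3. Gap43 alone gave 749 FPKM and 887 FPKM of these sums. The median log2 ratio of the list was 0.22, with Map2 at 0.39 and Nefm at 0.51. Counting intervals lay above 1 for 9 (64.3%) and below 1 for 1 (7.14%), where all genes had 20% and 22.2%. The interval below 1 was that of Tubb3, at a ratio of 0.964 (0.935 to 0.994). Neuronal markers were thus well detected, as the label says, but they were not alone. The 14 markers of radial glia and progenitors summed to 2266 FPKM in siNC and 1509 FPKM in siYthdf3. Intervals lay below 1 for 11 (78.6%) and 6 (42.9%) were 1.5-fold lower, where all genes had 22.2% and 3.95%. Eomes was at -1.96, Neurog2 at -1.25 and Top2a at -1.15. Nqo1 and Prdx1 were lower in that same library, as is any gene with a ratio below 1, which 6 of the 10 genes had.

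The 14 astrocyte markers summed to 217 FPKM and 281 FPKM, of which Gfap alone gave 68.2 FPKM and 141 FPKM. Among the 12 that passed the filter, 4 intervals (33.3%) lay on each side of 1, where all genes had 20% above and 22.2% below. The 12 split widely around a median of -0.02, with Gfap at 1.04, Slc1a2 at 0.80, Gja1 at -0.68 and Fgfr3 at -0.63. The 2 others, Gjb6 and Ntsr2, had at most 2 reads in a library. Microglia markers summed to 13.4 FPKM in siNC and 9.32 FPKM in siYthdf3 over 10 genes, with Tyrobp at -1.71, and Cx3cr1 had 2 reads in siNC and 0 in siYthdf3. Oligodendrocyte lineage markers summed to 85.0 FPKM and 72.4 FPKM over 12 genes. Among the 9 that passed the filter, 1 interval lay above 1 (11.1%) and 5 below (55.6%), against 20% and 22.2% of all genes. Olig2 was at -0.82, Cnp at 0.25 and Mag at 5 and 0 reads, and Mog alone gave 37.8 FPKM and 39.0 FPKM of the sums. Endothelial markers summed to 1.55 FPKM and 1.52 FPKM over 9 genes, all below the filter. Markers of pericytes, fibroblasts and meninges summed to 358 FPKM and 351 FPKM over 10 genes. Most of these sums came from Acta2, at 121 FPKM and 147 FPKM, and Tagln, at 221 FPKM and 190 FPKM. The 7 that passed the filter had a median log2 ratio of -0.22. Intervals lay above 1 for 2 (28.6%) and below 1 for 4 (57.1%), against 20% and 22.2% of all genes. Of the 7, 3 (42.9%) were 1.5-fold lower, where 3.95% of all genes were, and none was 1.5-fold higher. Col3a1 was at -0.80, Col1a2 at -0.70, Myh11 at 0.57 and Lum at 0 and 6 reads. The part of these markers in the differences of the 10 genes was not tested.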

How the data were processed

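The authors deposited FPKM values per gene for 1 siNC and 1 siYthdf3 library, beside each gene's symbol, position and length, per the file headers. Per the labels' protocols, the library kit tags each cDNA with a random identifier. The submitters' processing notes list, with no role or order, StringTie 2.1.4, edgeR 3.40.2, Subread 1.5.1 with featureCounts, STAR 2.7.6a and fastp 0.23.2. Whether identifiers were collapsed, the strand setting, build and annotation are not stated there.

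Multiplied by gene length and divided by the smallest step of its library, 100% of the FPKM values fell within 0.05 of a whole number of reads, which gave reads and library totals. No count test was run. The deposited other value, gene length in bases, served this step. Log2 ratios used a pseudocount of 0.5 FPKM and genes averaging 1 FPKM or more. Ratio intervals are Clopper-Pearson intervals of a gene's share of reads in siYthdf3, and level intervals are Poisson intervals. For the 194 symbols on several rows the highest row by mean was kept. Of 285 listed symbols, 276 matched. The calculation was tested on simulated data.

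All 10 genes were named, as were partners whatever their values, genes of each pathway list past 1.5-fold with up to 4 more of the largest differences, and up to 3 per cell type list. Other genes (Cul3, Mafg, Mafk, Btrc, Hmox2, Blvra, Blvrb, Prdx2, Prdx3, Sod1, Cat, Lpcat3, Tfrc, Chac1, Pgd, Secisbp2, Gstm1, Gstm4, Gstp1 and the like) were named for their role after their values were seen. Cell type markers without reads in a library were named too. Fgfr3, Cnp, Mog, Myh11, Tubb3, Gap43, Acta2 and Tagln were not among the 3 largest differences of their lists and were named after their values were seen. Members and lists were chosen with earlier results of these data known. Promoters came from RefSeq (GRCr8), whose coordinates were not joined to those of the table. Alternatives were pseudocounts, filters, scalings, a length correction and other rules of size. Software was Python 3.11.15 with scipy 1.17.1, numpy 2.4.6, statsmodels 0.14.6, pandas 2.3.3 and matplotlib 3.10.9.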

Additional observations from a re-analysis of the deposited data

How the results depend on the processing

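Nqo1 was the only 1 of the 10 genes past the 1.5-fold rule under both other pseudocounts (0.1 and 1 FPKM) and filters, after centring on the median, as TPM, after leaving mitochondrial and the top 20 genes out of the scaling, and with protein-coding genes alone. After removal of the length trend 0 were lower. With a smaller rule of size, 0.32 on the log2 scale, 2 were higher (Hmox1 and the thinly read Srxn1, not Nfe2l2) and 2 lower (Nqo1 and Prdx1), against 8.78% and 11.4% of all genes, and with a rule of 2-fold 0 were lower. The median of the 10 genes ran from -0.12 to -0.05. Signs of the single ratios held under 8 alternatives, except that of Slc7a11, which ran from -0.01 to 0.06. Gclm could not be placed with the filter at 5 FPKM, which it did not reach. Counting intervals on other scales were added after the data were seen. After rescaling to TPM 2 lay below 1, and after the length trend was removed 3 lay above 1, with Srxn1 added. The medians of 6 of the 10 pathway lists changed sign, and the lists that held theirs were the NRF2 regulators, the thioredoxin system, NADPH supply and the ATF4 targets. No paired analysis was possible because each group has 1 library. Depth limits Srxn1 and Gclm.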

Other observations

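Slc7a11 is also a target of ATF4, the transcription factor of the integrated stress response, and that list was examined as well. Atf4 itself was at 170.5 FPKM in siNC and 164.0 FPKM in siYthdf3, a ratio of 0.962 (0.923 to 1.00). Where 3.95% of all genes were 1.5-fold lower and 2.41% higher, 2 of 19 measured ATF4 genes (10.5%) were lower and none higher. These were Nupr1, a stress-induced nuclear protein, at 18.2 FPKM in siNC and 7.72 FPKM in siYthdf3, and Phgdh, the first enzyme of serine synthesis, at 45.6 FPKM and 21.1 FPKM. Asns and Ddit3 had log2 ratios of -0.11 and 0.08 with intervals that include 1. Atf3, an inducible stress factor, was at 0.38 and Shmt2, a mitochondrial serine hydroxymethyltransferase, at -0.41. Intervals lay above 1 for 2 of the 19 genes (10.5%) and below 1 for 5 (26.3%), against 20% and 22.2% of all genes.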
